A study of Mus musculus with 22 samples.

Results

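A pair of CRISPR/Cas9 knockout lines of one mouse tumour model was compared directly: the line labelled as a knockout of Pitx1 and the line labelled as a knockout of Creb3l1. The comparison took the 4 Pitx1KO and the 4 Creb3l1KO libraries at day 8, matched by EPCAM fraction and sample number, which makes 8 of the 22 libraries in the series. No control library entered it, so each difference below says which of the 2 knockout lines held more of a transcript and not which line moved away from unedited cells. The cells were a primary tumour line whose labelled genotype names Lgr5CreER, p53fl/fl and Rosa26-YFP+/+, and the CRISPR/Cas9 lines made from it. All groups share this genotype and a further labelled allele that is not described here. Lgr5CreER places a tamoxifen-inducible Cre under the control of Lgr5, a stem cell gene of the hair follicle and other epithelia, p53fl/fl carries p53 alleles that Cre deletes, and Rosa26-YFP marks the cells in which Cre acted. Living single mCherry+ YFP+ cells were sorted into an EPCAM+ and an EPCAM- fraction. Each of the 4 groups (Pitx1KO EPCAM+, Pitx1KO EPCAM-, Creb3l1KO EPCAM+, Creb3l1KO EPCAM-) holds 2 libraries, numbered sample 1 and sample 2. The labels do not say whether a knockout line is 1 clone, or whether samples 1 and 2 are separate cultures, so p-values measure the spread between these libraries, which may be technical.

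Pitx1 is a homeodomain transcription factor of the paired-like class, best known for setting hindlimb and pituitary identity, and it is also expressed in squamous tumours. Creb3l1, also called OASIS, is a bZIP transcription factor held in the membrane of the endoplasmic reticulum. Proteases of the Golgi release its active fragment, which in secretory cells raises genes of protein export and collagen production. EPCAM is a surface adhesion molecule of epithelial cells, and its loss accompanies epithelial-mesenchymal transition.

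The unit is the scaled count: reads per gene brought by the authors to a common total per library (20007331 to 20014236 units in the 8 libraries) and rounded. One read was worth 2.02 to 2.97 units in the 8 libraries, which held 6723586 to 9882692 reads in genes, so a scaled count of 3 stands for 1 read. Mitochondrial genes took 1.89% to 2.84% of the units. Values of single libraries are listed in the order EPCAM+ sample 1, EPCAM- sample 1, EPCAM+ sample 2, EPCAM- sample 2. Log2 fold changes are Pitx1KO minus Creb3l1KO on the scale of log2(scaled count + 1), with their standard error (SE), so a positive value means more in Pitx1KO. A gene is called when its limma p, adjusted by Benjamini-Hochberg over the 19045 genes tested, is below 0.05. Unless the text says otherwise, a called gene named below also kept its call in every alternative fit, among them those with each library left out.

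The targeted genes were read first. Pitx1 (ENSMUSG00000021506; chromosome 13, 55825051 to 55836192 in GRCm38) held 1473, 1205, 1627 and 1585 scaled counts in Pitx1KO and 4004, 5224, 4815 and 4068 in Creb3l1KO. The lines did not overlap, and the mean was 3.07-fold higher in Creb3l1KO (log2 fold change -1.62, SE 0.13, adjusted p = 3.1e-06). Transcript of the edited gene was thus lower in Pitx1KO, but present, and the cut site within it is not used here. Creb3l1 (ENSMUSG00000027230; chromosome 2, 91982328 to 92024502) stayed under the minimum for testing, at 0, 8, 0 and 3 in Pitx1KO and 3, 6, 0 and 0 in Creb3l1KO. With so few reads in either line, the RNA level cannot check the Creb3l1 knockout.

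Epcam transcript followed the EPCAM sort in both lines. Epcam held 5471 and 5923 scaled counts in the EPCAM+ and 269 and 658 in the EPCAM- libraries of Pitx1KO, against 5622 and 7320, and 427 and 735, in Creb3l1KO. Each of the 4 matched pairs was lower in Pitx1KO, but the line difference was not called (log2 fold change -0.29, SE 0.29, adjusted p = 0.61). Keratins 8 and 18, general markers of simple epithelia, were abundant in all 8 libraries, with Krt8 between 9446 and 18558. Among markers of other cell types, Cd3e, Adgre1 and Tyr were at 0 in all 8 libraries, and Ptprc was at 6 in 1 library and 0 in the other 7. Others were present: Col1a1 lay between 140 and 3666, Pdgfra between 116 and 398, Pecam1 between 72 and 152, Csf1r between 91 and 277 and Cd68 between 42 and 97. The summed level of 14 endothelial and pericyte markers was 1139 to 1577 in Pitx1KO and 733 to 1358 in Creb3l1KO, with Tie1 and Cldn5 at 0 throughout. Of the 7 of them tested, 2 were called higher in Pitx1KO, against 6.56% of all genes tested. Kdr, a VEGF receptor, held 81, 269, 5 and 13 against 8, 6, 3 and 0 (adjusted p = 0.013), and lost its call without EPCAM+ sample 1 (0.0746) or EPCAM- sample 1 (0.0676) of Creb3l1KO and without the block (0.406). Flt1, another VEGF receptor, held 902, 550, 598 and 497 against 574, 416, 401 and 333 (adjusted p = 0.016), and lost its call without any of 4 of the 8 libraries (up to 0.0759) and without the block (0.293).

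Between the lines, 2013 genes were called, 10.6% of those tested. Of these, 1250 (6.56%) were higher in Pitx1KO and 763 (4.01%) lower, and 635 differed by more than 1 on the log2 scale. All 4 matched library pairs pointed the same way in 1914 of the 2013, and in 5171 of all 19045 genes tested. In 1285 of the 2013 called genes every library of one line lay above every library of the other, a pattern that 10.6% of all genes tested showed. The calls rest on these same libraries. In bulk libraries such as these, fewer cells of a type and less RNA per cell cannot be told apart. The count depends on the design: 765 genes were called without the sample number as a block, 480 when the 2 fractions of a line and number were averaged first, and 1203 without the EPCAM+ sample 1 or 1223 without the EPCAM- sample 1 of Creb3l1KO. Without the block and with the fractions averaged, the fold changes equal those of the main fit, so no direction could change there. With any 1 library left out, no called gene changed direction. In all, 826 kept the call with each library left out, and 382 kept it under every alternative.

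**Figure D1:**
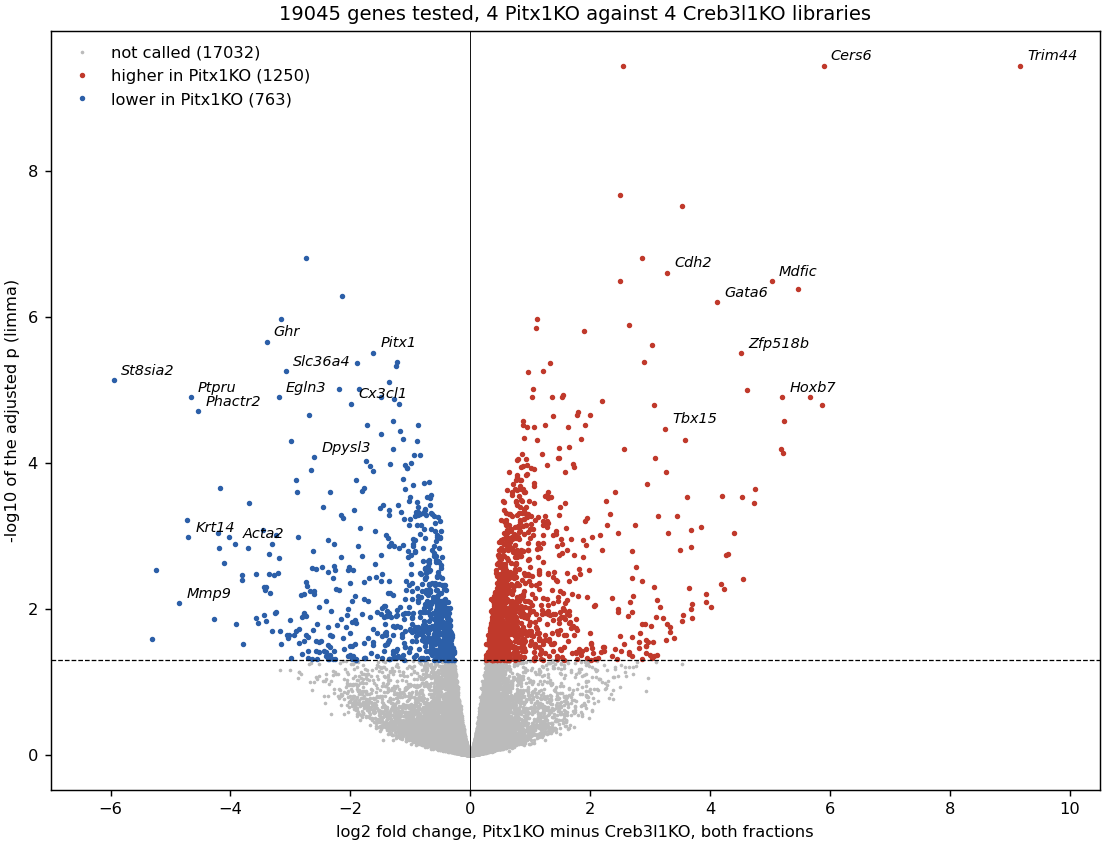
Log2 fold change (horizontal axis, Pitx1KO minus Creb3l1KO, both fractions) against -log10 of the adjusted p of limma (vertical axis) for 19045 genes. The dashed line marks an adjusted p of 0.05. Red points are the 1250 genes higher and blue points the 763 genes lower in Pitx1KO, with Trim44 and Cers6 at the upper right and St8sia2 at the far left.

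The gene that separated the lines most was Trim44, which encodes a deubiquitinase-like member of the tripartite motif family. Trim44 (ENSMUSG00000027189; chromosome 2, 102300119 to 102407828, minus strand) held 830, 976, 818 and 668 scaled counts in Pitx1KO and 3, 0, 0 and 0 in Creb3l1KO. In reads this was 1284 against 1, a ratio of 1398 with a 95% counting interval of 250.5 to 55268, which covers counting error only (log2 fold change 9.17, SE 0.31, adjusted p = 3.7e-10). That limit holds for every counting interval below. The 8 Klf5KO and Nfatc1KO libraries, the other knockout lines at day 8, held 110 to 1047. Creb3l1KO therefore stood alone in this gene, while Pitx1KO lay within the range of the other lines. Of the 12 other genes tested whose start lies within 1 Mb of that of Trim44, 4 were called, all higher in Pitx1KO. Over all genes tested, 6.56% were called higher. The amounts were far smaller: Apip by 0.96 (SE 0.14), Ldlrad3 by 0.95 (SE 0.11), Pdhx by 0.94 (SE 0.11) and Commd9 by 0.80 (SE 0.16) on the log2 scale. The call for Ldlrad3 was lost with all 22 libraries in the fit (adjusted p = 0.0876), and that for Commd9 with the fractions averaged (0.066). Unlike in Trim44, Pitx1KO was the line farther from the mean of Klf5KO and Nfatc1KO in each of these 4 genes. The log2 mean of Ldlrad3 was 10.54 in Pitx1KO, 9.59 in Creb3l1KO and 9.81 in those 2 lines. Cd44, the hyaluronan receptor often used as a marker of mesenchymal tumour cells, lies in the same stretch and was not called (0.19, SE 0.13, adjusted p = 0.41), with 24070 to 31428 scaled counts in Pitx1KO and 18552 to 28086 in Creb3l1KO.

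Cers6, a ceramide synthase, came next. It held 1229, 2337, 523 and 715 scaled counts in Pitx1KO against 8, 75, 5 and 20 in Creb3l1KO, a 44.5-fold difference of means (log2 fold change 5.89, SE 0.20, adjusted p = 3.7e-10). Like Trim44 it lies on chromosome 2 and was low in Creb3l1KO alone, since the Klf5KO and Nfatc1KO libraries held 443 to 4134. The EPCAM- library of sample 1 was the highest in both lines. Slc7a1, the main importer of arginine and lysine, was named after its values were seen: it held 27872, 31003, 25444 and 24290 in Pitx1KO against 5939, 5152, 4216 and 3538 in Creb3l1KO (log2 fold change 2.55, SE 0.09, adjusted p = 3.7e-10), and Klf5KO and Nfatc1KO held 18130 to 33863.

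The 250 bases before the RefSeq start (GRCm38.p6) are shown for 4 of the genes whose transcript was at or near 0, or more than 4 on the log2 scale lower, in one line: Trim44 and Cers6, low in Creb3l1KO, and Krt14 and Ptpru, low in Pitx1KO. The search covered 3 motifs on both strands: TAATCC, the core bound by Pitx-type homeodomains, TGACGT, the core of the cAMP response element, and CCACGT, an element of the kind bound by Creb3 family factors. TGACGT and CCACGT can overlap, since both end in the palindrome ACGT. Capitals mark matches.
Trim44, chr2:102400901-102401150, minus strand: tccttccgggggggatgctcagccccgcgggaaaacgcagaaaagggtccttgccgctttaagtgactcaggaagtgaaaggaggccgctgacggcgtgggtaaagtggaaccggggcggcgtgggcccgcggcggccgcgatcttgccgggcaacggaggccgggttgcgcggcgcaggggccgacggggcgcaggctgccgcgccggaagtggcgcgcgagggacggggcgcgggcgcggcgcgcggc
Cers6, chr2:68861191-68861440, plus strand: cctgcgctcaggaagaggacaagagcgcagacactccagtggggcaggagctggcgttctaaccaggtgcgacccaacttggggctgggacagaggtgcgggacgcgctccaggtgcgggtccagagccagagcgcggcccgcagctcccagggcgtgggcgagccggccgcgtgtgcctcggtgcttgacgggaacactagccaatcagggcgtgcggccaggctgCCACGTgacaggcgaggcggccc
Krt14, chr11:100206031-100206280, minus strand: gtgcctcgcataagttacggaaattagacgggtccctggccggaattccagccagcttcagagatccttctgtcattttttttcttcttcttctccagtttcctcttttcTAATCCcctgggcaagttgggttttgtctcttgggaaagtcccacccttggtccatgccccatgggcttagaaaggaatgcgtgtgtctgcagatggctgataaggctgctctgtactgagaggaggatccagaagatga
Ptpru, chr4:131838279-131838528, minus strand: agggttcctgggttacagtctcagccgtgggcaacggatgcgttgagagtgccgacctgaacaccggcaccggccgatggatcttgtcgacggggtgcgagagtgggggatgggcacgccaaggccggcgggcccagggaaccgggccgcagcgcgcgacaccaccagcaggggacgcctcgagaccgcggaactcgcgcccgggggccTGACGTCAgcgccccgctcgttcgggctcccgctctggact
The Trim44 window held none of the 3 motifs, that of Cers6 held 1 CCACGT whose first base lies 23 bases before the start, and that of Krt14 held 1 TAATCC, 140 bases before it. The Ptpru window held TGACGTCA, in which TGACGT reads on both strands, 41 bases before the start. The windows of Hoxb8, St8sia2, Acta2, Krt7 and Cd59a were searched as well, held none of the 3 motifs and are not shown. Over 27025 genes with a window, 7.21% held TAATCC, 7.29% TGACGT and 7.84% CCACGT. Among called genes matched by symbol, TAATCC stood in 5.56% of 935 higher and 5.93% of 523 lower in Pitx1KO, against 6.34% of 10746 genes tested. TGACGT stood in 9.63% and 8.41%, against 11.2%, and CCACGT in 11.1% and 10.1%, against 10.8%. These matches are descriptions of letters and show no binding. For Trim44 and Krt14 the annotated gene span given in the text reaches past the RefSeq start, so their windows lie inside that span.

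Several Hox genes were higher in Pitx1KO. Of 22 Hox genes tested, 7 were called higher in Pitx1KO, 15 were not called, and none was lower, with a median log2 fold change of 0.27 over the 22 against 0.03 over all genes. The shares over all genes were 6.56% called higher and 4.01% lower. Hox proteins set position along the body axis, and 5 of the 7 were neighbours in the HoxB cluster on chromosome 11. Hoxb7 held 227, 216, 214 and 203 scaled counts in Pitx1KO against 8, 11, 0 and 10 in Creb3l1KO (log2 fold change 5.20, SE 0.49, adjusted p = 1.3e-05). Hoxb8 held 93, 66, 97 and 133 against 0, 3, 0 and 10 (5.21, SE 0.60), Hoxb9 117, 130, 80 and 330 against 8, 11, 11 and 13 (3.62, SE 0.49), and Hoxb5 39, 59, 54 and 47 against 0, 11, 3 and 13 (3.30, SE 0.52). No library of one line overlapped the other in these 4 genes. Hoxb6 was higher by 2.41 (SE 0.32). Hoxa9 and Hoxa10 were higher by 2.46 (SE 0.55) and 1.47 (SE 0.31). Their calls were lost with the fractions averaged (adjusted p = 0.063 and 0.0619), that of Hoxa9 also without the EPCAM- sample 1 of Creb3l1KO (0.0531) and that of Hoxa10 with the 4 matched pairs as the block (0.066). In Klf5KO and Nfatc1KO, Hoxb7 lay between 5 and 31 and Hoxb8 between 0 and 20, near the Creb3l1KO values and below all 4 Pitx1KO libraries.

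Other developmental regulators followed. Gata6, a zinc finger factor of endoderm and heart, held 197, 328, 150 and 312 in Pitx1KO against 10, 13, 15 and 13 in Creb3l1KO (log2 fold change 4.11, SE 0.29, adjusted p = 6.3e-07), with 43 to 213 in the other 2 lines. Tbx15, a T-box factor of limb and skin mesenchyme, held 128, 196, 125 and 130 against 5, 39, 9 and 20 (3.26, SE 0.35), and the other lines, at 15 to 96, lay below all Pitx1KO libraries and overlapped Creb3l1KO. Foxf2, a forkhead factor of mesenchyme, was higher by 1.75 (SE 0.31). On the list of Pitx family members and partners in squamous and limb identity, 1 of 20 tested genes was called higher (Gata6) and 2 lower (Pitx1 and Sox11). The shares over all genes were 6.56% and 4.01%. Sox11 fell by 0.67 (SE 0.16) with a call that was lost in several fits, such as the one without the sample block (adjusted p = 0.2), the fractions averaged (0.0886), and those without EPCAM+ sample 1 of Pitx1KO (0.075), EPCAM+ sample 1 of Creb3l1KO (0.0813) or EPCAM- sample 1 of Creb3l1KO (0.081).

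**Figure D2:**
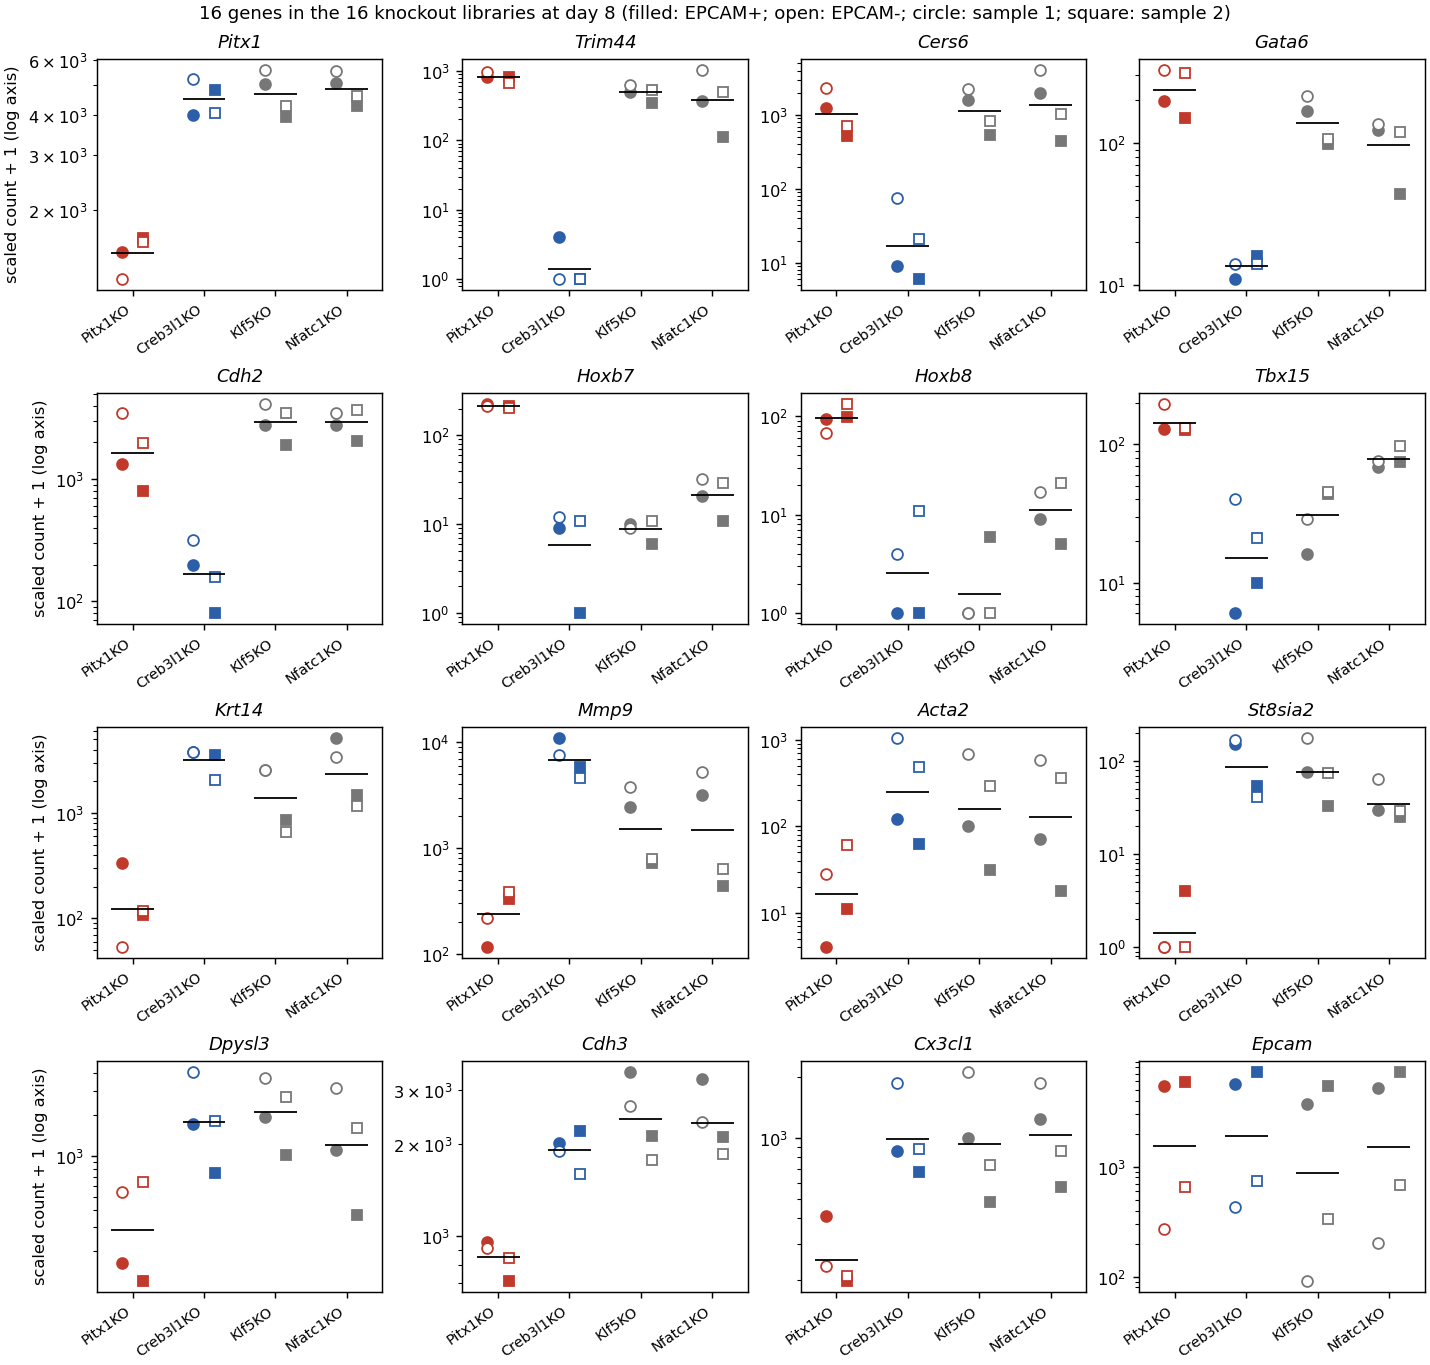
Scaled count + 1 (vertical log axis, a separate scale in each panel) of 16 genes in the 16 knockout libraries. Filled symbols are EPCAM+ and open symbols EPCAM-, circles are sample 1 and squares sample 2, and the horizontal line is the geometric mean of a line. Trim44, Cers6, Gata6 and Cdh2 are lowest in Creb3l1KO, Hoxb7 and Hoxb8 are highest in Pitx1KO, and Pitx1, Krt14, St8sia2 and Cdh3 are lowest in Pitx1KO.

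Cadherins went in opposite directions. Cdh2, the N-cadherin of mesenchymal and neural cells, held 1333, 3454, 804 and 1969 scaled counts in Pitx1KO against 197, 316, 79 and 158 in Creb3l1KO, a 10.1-fold difference of means (log2 fold change 3.29, SE 0.18, adjusted p = 2.5e-07). Klf5KO and Nfatc1KO held 1905 to 4150, above all 4 Creb3l1KO libraries and above the 2 EPCAM+ libraries of Pitx1KO. Cdh3, the P-cadherin of basal epithelium, held 949, 912, 708 and 847 against 2005, 1887, 2204 and 1586, lower in Pitx1KO (-1.17, SE 0.13, adjusted p = 3.7e-05) and below the 1761 to 3435 of the other lines. Cdh1, the E-cadherin, was not called (-0.41, SE 0.21, adjusted p = 0.27). Of 45 epithelial junction and polarity genes tested, 2 were called higher and 7 lower in Pitx1KO, against 6.56% and 4.01% of all genes. Their median was -0.04. Called lower, beside Cdh3, were Cldn6 by -1.15 (SE 0.17), a claudin of embryonic epithelia, and the desmosomal genes Perp by -1.36 (SE 0.19) and Pkp1 by -0.82 (SE 0.17). Perp lost its call with the 4 matched pairs as the block (adjusted p = 0.159), and Pkp1 without the block (0.328). Spint1, the inhibitor of matriptase, was higher in Pitx1KO by 1.28 (SE 0.19), with 1625, 506, 2241 and 1250 against 1224, 180, 1259 and 235, but was not called with the 4 matched pairs as the block (0.0646).

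Keratin 14 and a laminin chain were the basal keratinocyte genes that were lower in Pitx1KO with each library left out. Of 19 genes in that list tested, 4 were called lower, none higher and 15 not called, with a median of -0.82. The shares over all genes were 4.01% called lower and 6.56% higher. Krt14, the keratin of the basal layer of stratified epithelia (chromosome 11, 100203162 to 100207548), held 331, 52, 106 and 117 scaled counts in Pitx1KO against 3795, 3779, 3538 and 2034 in Creb3l1KO, a 21.7-fold difference of means (log2 fold change -4.71, SE 0.51, adjusted p = 0.001). All 8 libraries of Klf5KO and Nfatc1KO, at 665 to 5188, also lay above Pitx1KO. Its usual partner Krt5 was low in both lines, at 0 to 47 and 3 to 88, and was not called (-1.38, SE 0.61, adjusted p = 0.18). The laminin chain Lama3, part of the basement membrane anchor of epithelia, held 4162, 318, 5553 and 645 against 12575, 2619, 11615 and 3642 (-2.05, SE 0.38, adjusted p = 0.012), a call lost with the fractions averaged (0.103). In both lines the EPCAM+ libraries held several times more Lama3 than the EPCAM- libraries, so its ranges overlapped although each matched pair was lower in Pitx1KO. Lamb3 (-1.56, SE 0.40, adjusted p = 0.044) and Itga6 (-1.56, SE 0.34, adjusted p = 0.021) were each called, but lost the call when single libraries were left out: Lamb3 without any of 6 of the 8 (up to 0.134), Itga6 without any of 5 (up to 0.0752). Krt7, a keratin of simple epithelia, held 81, 69, 282 and 177 against 1195, 527, 2140 and 501 (-2.80, SE 0.52, adjusted p = 0.013). It was the only 1 of 5 simple keratins tested that was called, and its call was lost without the EPCAM- sample 1 of Creb3l1KO (0.0531) and with the fractions averaged (0.121). In Krt7 both lines lay below the other knockout lines, at 2511 to 14996.

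Contractile and mesenchymal genes were divided. Of 28 tested, 2 were called higher and 6 lower in Pitx1KO, against 6.56% and 4.01% of all genes, with a median of -0.18. Acta2, the smooth muscle actin of contractile cells, held 3, 27, 10 and 60 scaled counts in Pitx1KO against 121, 1058, 61 and 489 in Creb3l1KO (log2 fold change -3.92, SE 0.54, adjusted p = 0.0013). In both lines the EPCAM- libraries were the higher ones. Myl9, a regulatory light chain of myosin, was at 2 reads against 52, a ratio of 23.9 in favour of Creb3l1KO with a counting interval of 6.29 to 202.4. The adhesion molecule Ncam1 held 4635, 7224, 2241 and 5006 against 9864, 16126, 6616 and 11025 (-1.24, SE 0.11, adjusted p = 4.7e-06, and 0.0563 without the block). The 2 genes higher in Pitx1KO were Cdh2 and Vim, the mesenchymal intermediate filament. Vim held 15748, 52675, 10950 and 41775 against 6060, 30486, 5163 and 36078 (0.87, SE 0.12, adjusted p = 0.00033), a call lost with all 22 libraries in the fit (0.109). Among 20 transcription factors of epithelial-mesenchymal transition, 2 were called higher, among them Foxf2, and 3 lower, and none of the 3 kept its call with each library left out. Of these 3, Zeb1 (-0.90, SE 0.26, adjusted p = 0.042) held 114, 411, 38 and 78 against 109, 658, 45 and 528, and 6 of the 8 omissions ended its call, that of the EPCAM- sample 2 of Creb3l1KO with 0.192. Snai1, Snai2, Twist1 and Zeb2 were not called, with adjusted p of 0.61, 0.07, 0.12 and 0.82.

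Matrix genes differed in both directions. Of 35 collagens and collagen-processing genes tested, 2 were called higher and 4 lower in Pitx1KO, against 6.56% and 4.01% of all genes. Their median was 0.15. Col5a2 held 143, 1296, 26 and 198 scaled counts against 8, 13, 3 and 3 (log2 fold change 4.73, SE 0.60, adjusted p = 0.00035), and Col3a1 87, 1098, 8 and 65 against 3, 60, 3 and 8 (3.17, SE 0.68, adjusted p = 0.0093). Both fibrillar collagens were highest in the EPCAM- sample 1 of Pitx1KO, and both lost their call without the block (0.0732 and 0.344), Col3a1 also with the fractions averaged (0.0844). Col3a1 was the 1 gene called among 6 fibroblast markers tested. The summed level of all 13 markers in that list was 724 to 5059 in Pitx1KO and 294 to 2404 in Creb3l1KO, Lum, Fap and Dpt were at 0 in all 8 libraries, and the part of fibroblast RNA in these 2 collagens was not tested. The sort kept mCherry+ YFP+ cells, and its purity was not tested. Col4a5, a basement membrane collagen, was lower by -2.24 (SE 0.42), a call lost in the voom fit (0.0591). Among 30 other matrix genes, 2 were called higher and 6 lower.

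Matrix proteases showed large differences. Mmp9, a gelatinase that cleaves basement membrane collagen, held 114, 218, 326 and 380 scaled counts in Pitx1KO against 11051, 7601, 5774 and 4576 in Creb3l1KO, a 27.9-fold difference of means (log2 fold change -4.86, SE 0.79, adjusted p = 0.0083), a call lost with the fractions averaged (0.101). The 2 lines did not overlap. The other knockout lines spanned 440 to 5250, above all Pitx1KO libraries and overlapping the lowest of Creb3l1KO. Mmp12, the macrophage elastase, went the same way, at 0, 5, 40 and 50 against 860, 604, 170 and 346 (-5.31, SE 1.16, adjusted p = 0.026). Its call was lost in the voom fit (0.153) and without the EPCAM+ sample 1 (0.061) or EPCAM- sample 1 (0.087) of Pitx1KO or the same 2 samples of Creb3l1KO (0.0698 and 0.0966). The lines lay nearer to each other in sample 2 than in sample 1. Of 20 immune cell markers in the table, 7 were at 0 in all 8 libraries, among them the macrophage markers Adgre1, C1qa, C1qb and Tyrobp, while the macrophage receptor Csf1r and Cd68 had reads in all 8. The summed level of the list was 272 to 653 in Pitx1KO and 328 to 467 in Creb3l1KO. Ctsh, a lysosomal aminopeptidase, was lower by -1.80 (SE 0.22), while Mmp24, a membrane-bound metalloprotease, was higher by 1.07 (SE 0.14), at 592 to 746 against 239 to 397. In all, 5 of 42 proteases and inhibitors tested were called higher and 4 lower, against 6.56% and 4.01% of all genes.

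Genes of axon guidance and neural adhesion differed in both directions. Of 34 tested, 2 were called higher and 8 lower in Pitx1KO, against 6.56% and 4.01% of all genes, with a median of -0.20, and 8 of the 10 kept the call with each library left out. Dpysl3, a cytoskeletal mediator of semaphorin signalling, held 164, 541, 120 and 642 scaled counts in Pitx1KO against 1697, 4121, 747 and 1810 in Creb3l1KO (log2 fold change -2.60, SE 0.24, adjusted p = 8.3e-05). Its relative Crmp1 held 3 reads against 67, a ratio of 20.5 (counting interval 6.72 to 102). In Crmp1 both lines were low, since the other knockout lines held 425 to 996. The semaphorin receptor subunit Nrp2 was lower by -0.77 (SE 0.11, adjusted p = 0.00047, and 0.213 without the block), and the ligand Sema4d by -0.59 (SE 0.09). The 2 genes higher in Pitx1KO were ligands: Slit2, the repellent that binds Robo receptors, at 595, 822, 233 and 351 against 101, 172, 47 and 230 (1.92, SE 0.27), and Sema3e (1.15, SE 0.22, adjusted p = 0.0052, and 0.0708 without the block). St8sia2, a sialyltransferase that builds the polysialic acid carried by NCAM, had the largest fitted fall of the named genes. It held 0, 0, 3 and 0 in Pitx1KO against 151, 170, 53 and 40 in Creb3l1KO, 1 read against 169, a ratio of 155.2 (counting interval 27.5 to 6166), with an adjusted p of 7.3e-06. Klf5KO and Nfatc1KO held 24 to 179, so here Pitx1KO was the line apart.

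Further genes with large differences follow. Lower in Pitx1KO were Ptpru, a receptor tyrosine phosphatase, at 3, 8, 3 and 0 against 141, 134, 81 and 37 (log2 fold change -4.67, SE 0.44), and Phactr2, a regulator of phosphatase and actin, at 6, 0, 3 and 6 against 55, 98, 79 and 129 (-4.54, SE 0.43). The same direction held for Ghr, the growth hormone receptor (-3.40, SE 0.27, adjusted p = 2.2e-06), for Egln3, a prolyl hydroxylase of the hypoxia pathway (-3.20, SE 0.30), for the amino acid transporter Slc36a4 (-3.08, SE 0.27) and for Gas1, a hedgehog co-receptor (-3.69, SE 0.51). In the other knockout lines Phactr2 lay at 110 to 187, above all Pitx1KO libraries, and Slc36a4 at 190 to 320, above both lines. Gng2, a G protein gamma subunit, was at 2 reads against 102, a ratio of 46.8 (counting interval 12.6 to 391.95). Higher in Pitx1KO were Zfp518b, a zinc finger gene, at 598, 1310, 990 and 1027 against 55, 57, 33 and 25 (4.52, SE 0.28, adjusted p = 3.1e-06), with 591 to 1558 in the other lines, and Mdfic, which binds and restrains transcription factors, at 235, 304, 40 and 97 against 8, 6, 0 and 3 (5.03, SE 0.33). Cd59a, an inhibitor of the complement attack complex, was at 121 reads against 2, a ratio of 65.9 (counting interval 17.8 to 550). The heparan sulfate proteoglycan Sdc2 had 78 reads against 0 and Ppp2r2c, a regulatory subunit of phosphatase PP2A, 168 against 0, so their means were at least 6.86-fold and 14.5-fold higher in Pitx1KO against a floor of 3 reads a library. Brinp3 was at 234 reads against 3, a ratio of 84.9 (counting interval 28.7 to 414.8), and the other lines held 3 to 19, so Pitx1KO was the high line.

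Genes tied to Creb3l1 by function were read next. Of 18 members of the Creb3 and Atf6 family and their proteases tested, none was called with limma, 1 had an unadjusted p below 0.05, and voom called 0. Creb3l2, the closest relative of Creb3l1, held 1003, 1188, 1611 and 2180 in Pitx1KO against 2532, 3114, 1439 and 1428 in Creb3l1KO (log2 fold change -0.49, SE 0.40, adjusted p = 0.54), with the order of the lines turned between sample 1 and sample 2. Of 29 genes of the unfolded protein response, 6 were called lower in Pitx1KO, against 4.01% of all genes, and none higher, with a median of -0.09. These were Pdia3, Pdia4, Hsp90b1, Hyou1 and Manf, which encode proteins of the endoplasmic reticulum, and the stress gene Ddit4, with log2 fold changes between -0.32 and -0.63. Pdia3, a disulfide isomerase, held 14038, 15025, 16622 and 17129 against 22304, 21699, 20877 and 23210 (-0.49, SE 0.08, adjusted p = 0.00086), and was the only 1 of the 6 to keep its call with each library left out. Hspa5, the main chaperone of the compartment, was not called (-0.23, SE 0.10, adjusted p = 0.17), nor were Xbp1 (0.93), Ddit3 (0.63) or Atf6 (0.77). Of 52 genes of secretory transport, 4 were called higher and 4 lower, against 10.6% of all genes in either direction, with a median of 0.04, and only Ssr1, a subunit of the translocon-associated complex, kept its call with each library left out (-0.50, SE 0.08, adjusted p = 0.0011, and 0.0556 without the block).

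Among signalling genes, calls stood in both directions, and many rested on single libraries. Of 32 Wnt genes tested, 1 was called higher and 5 lower in Pitx1KO, against 6.56% and 4.01% of all genes. Of these Wnt genes, the receptor Fzd7 (0.96, SE 0.16) and the ligand Wnt5a (-2.38, SE 0.44, adjusted p = 0.0031) kept the call with each library left out. Wnt5a lost it without the block (0.0716) and in the voom fit (0.0672). Of 18 Notch genes, 3 were called higher and 5 lower, where 10.6% of all genes were called in either direction, and the ligand Dll1 (-1.95, SE 0.36) was the 1 that kept its call with each library left out. Betacellulin (Btc), a ligand of the EGF receptor, was at 2 reads against 32, a ratio of 14.7 (counting interval 3.75 to 127), and Etv5, a target of the ERK pathway, was lower by -0.87 (SE 0.12, adjusted p = 0.0004). Fgf2 was higher by 1.62 (SE 0.28), lost with the fractions averaged (0.0641). Among 27 AP-1 and immediate early genes, 3 were called higher and none lower: Klf2 at 536, 763, 664 and 704 against 229, 283, 245 and 151 (1.57, SE 0.21), Jund (0.64, SE 0.12) and Egr1 (0.92, SE 0.16, adjusted p = 0.0034, and 0.676 without the block). Egr1 was several times higher in sample 1 than in sample 2 of both lines.

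Immune signalling genes were called in both directions. Of 42 interferon response and antigen presentation genes tested, 3 were called higher and 10 lower, against 6.56% and 4.01% of all genes. Their median was -0.10, and 6 of the 13 kept the call with each library left out: Irf8, Ifit2, Tapbp and Parp14 (lower), and Ifih1 and Bst2 (higher). Without the block 1 of the 13 was called, and none of the 13 kept its call under every alternative. Of 37 chemokines and cytokines, 2 were called higher and 4 lower. Cx3cl1, the membrane-bound chemokine fractalkine, held 411, 233, 195 and 208 in Pitx1KO against 862, 1869, 680 and 876 in Creb3l1KO (log2 fold change -1.98, SE 0.18, adjusted p = 1.5e-05), with 480 to 2117 in the other lines, so Pitx1KO was the low line.

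Metabolic and stress genes were described by single members. Nfe2l2, the transcription factor NRF2 of the antioxidant response, held 4349, 4495, 3413 and 2928 in Pitx1KO against 2010, 1600, 1931 and 1891 in Creb3l1KO (log2 fold change 1.01, SE 0.12, adjusted p = 0.00012). Of 42 genes of glutathione, NRF2 and ferroptosis tested, 5 were called higher and 1 lower. Besides Nfe2l2, only Gpx8, a peroxidase of the endoplasmic reticulum that was lower (-0.75, SE 0.11), kept its call with each library left out. Of 34 genes of cholesterol and fatty acid synthesis, 2 were called higher and 6 lower, with Cyp51, a sterol demethylase, at -0.91 (SE 0.13, adjusted p = 0.00052). Of 36 hypoxia and glycolysis genes, 4 were called higher and 2 lower. Car12, a carbonic anhydrase (1.68, SE 0.27), and Mxi1, a Myc antagonist (0.98, SE 0.13), were higher, against the fall of Egln3 in the same list. Of 44 genes of S phase and mitosis, 5 were called higher and none lower, with a median of 0.10. Without the block none of the 5 was called. Beside the 6.56% of all genes called higher and 4.01% lower, the remaining lists held 0 higher and 3 lower of 22 ErbB genes, 1 and 4 of 36 genes of FGF and other receptor kinases, 1 and 1 of 42 TGF-beta genes, 3 and 3 of 26 YAP targets, 0 and 4 of 21 p53 targets, 0 and 1 of 14 squamous differentiation genes and 5 and 2 of 34 TRIM genes. The plot of members called per list shows all 34 lists.

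**Figure D3:**
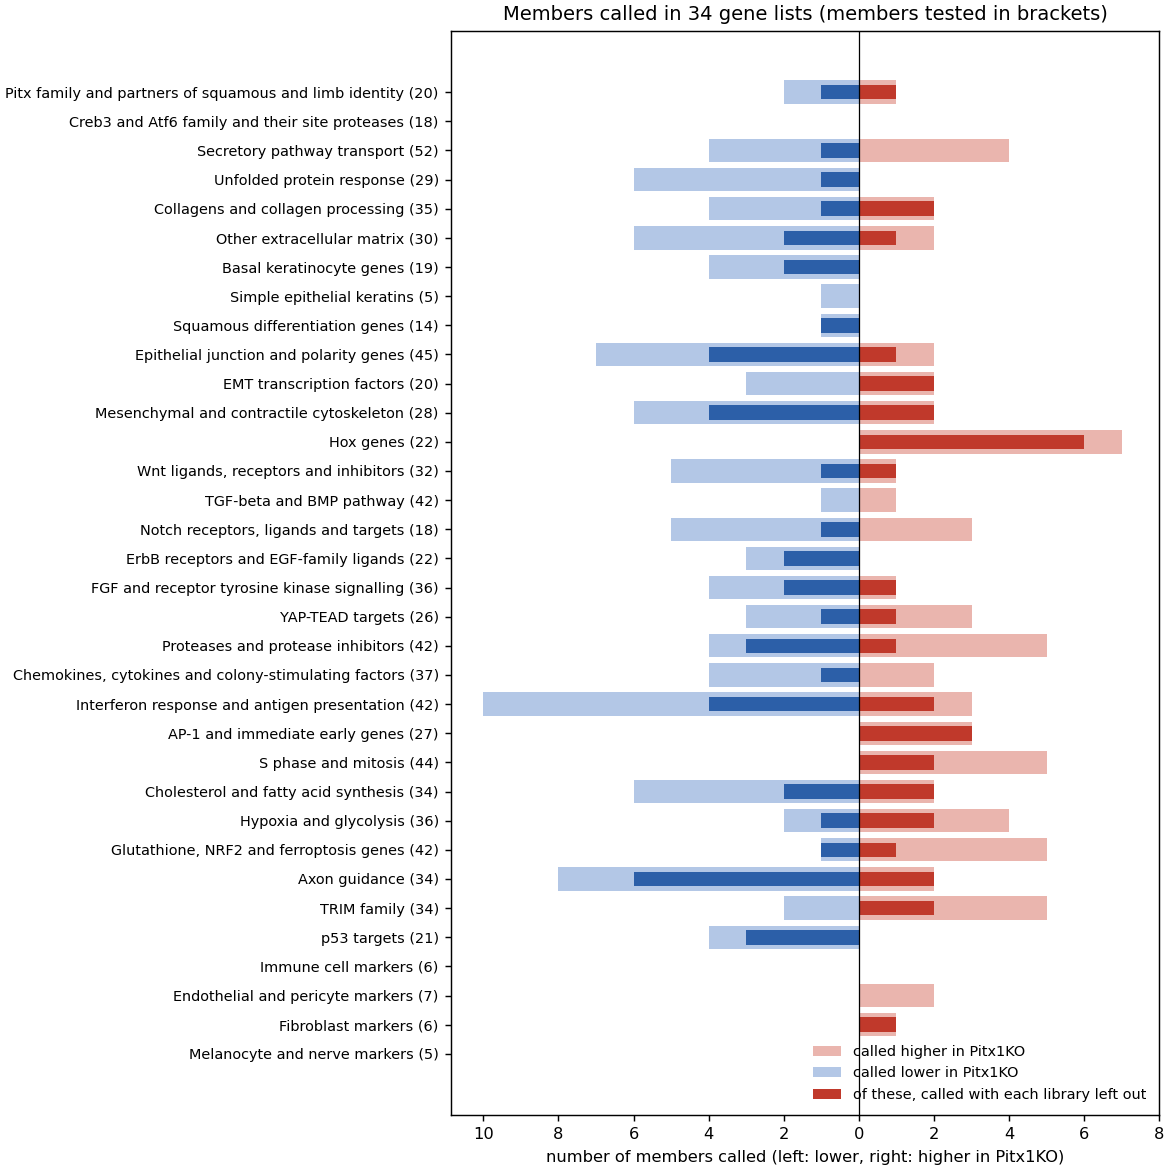
Number of members called lower (blue, left) and higher (red, right) in Pitx1KO in each of 34 gene lists, with the members tested in brackets. The darker inner bars are the members that stayed called with each of the 8 libraries left out. Hox genes extend to the right alone (7 called), and axon guidance and interferon genes mainly to the left (8 and 10 called).

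The comparison was repeated within each EPCAM fraction. In EPCAM+ cells 493 genes were called (2.59%), 294 (1.54%) higher and 199 (1.04%) lower in Pitx1KO, and in EPCAM- cells 679 (3.57%), 446 (2.34%) higher and 233 (1.22%) lower. Of these, 306 were called in both fractions, 62.1% of the EPCAM+ and 45.1% of the EPCAM- calls, and none of the 306 differed in direction. Without the block the counts were 89 and 152. Without EPCAM+ sample 2 of Pitx1KO the balance in EPCAM+ cells turned to 209 higher and 281 lower, with 258 calls shared. Across the 12615 genes with a mean of at least 50, the log2 fold changes of the fractions had a Pearson r of 0.778, and over all 19045 genes tested 0.528, a description across genes that are not independent replicates, of fractions that may share a culture. No gene was called for an interaction of line and fraction with limma, 499 had an unadjusted p below 0.05, and voom called 0. Itga6 differed by more in EPCAM- cells (log2 fold change -2.33) than in EPCAM+ cells (-0.79), and neither it nor any other gene passed that test.

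**Figure D4:**
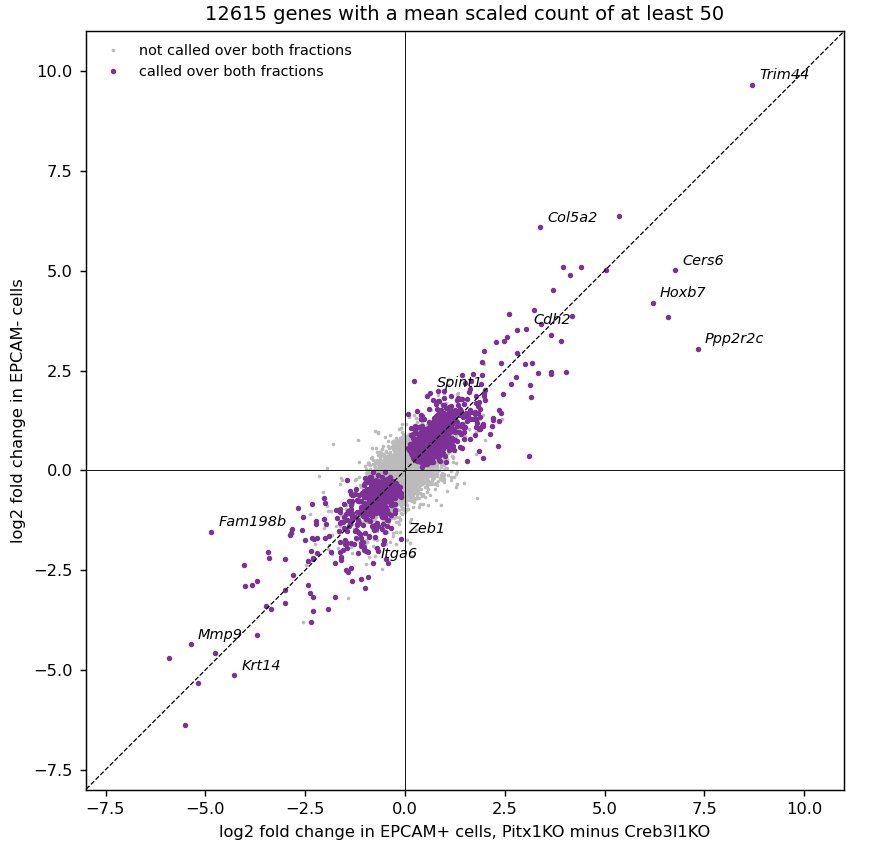
Log2 fold change, Pitx1KO minus Creb3l1KO, in EPCAM+ cells (horizontal axis) and EPCAM- cells (vertical axis) for 12615 genes with a mean scaled count of at least 50, with the line of equality dashed. Purple points are genes called over both fractions, and they lie along the dashed line from Mmp9 and Krt14 at the lower left to Trim44 at the upper right.

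Called genes were unevenly spread over the chromosomes. Among the 12615 genes with a mean of at least 50, 8.74% were called higher and 4.99% lower in Pitx1KO. On chromosome 5, 225 of 887 genes (25.4%) were called higher, on chromosome 2 224 of 993 (22.6%) and on chromosome 12 72 of 422 (17.1%). On chromosome 13, which carries Pitx1, 131 of 481 genes (27.2%) were called lower and 7 higher, with a median log2 fold change of -0.28. The 4 matched pairs gave medians of -0.28, -0.23, -0.21 and -0.37 there. Relative to the mean of Klf5KO and Nfatc1KO, the chromosome 13 median was -0.23 in Pitx1KO and 0.08 in Creb3l1KO. Without the sample block the shares were 9.7% higher on chromosome 5, 12.4% on chromosome 2, 3.79% on chromosome 12 and 8.52% lower on chromosome 13, against 3.24% higher and 1.85% lower over all these genes.

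Within chromosome 2 the difference was largest in the stretch from 60 to 110 Mb, which holds Creb3l1, Trim44 and Cers6. Its 5 windows of 10 Mb had median log2 fold changes of 0.56, 0.58, 0.53, 0.94 and 0.52. The windows from 170 to 190 Mb stood at 0.34 and 0.39, and those from 120 to 160 Mb between -0.08 and -0.23. In the window from 90 to 100 Mb, where Creb3l1 lies, 40 of 46 genes were called higher in Pitx1KO and none lower. The shares over all genes with a mean of at least 50 were 8.74% and 4.99%. The 4 matched pairs gave medians of 0.61, 0.98, 1.03 and 1.04 in this window. Relative to Klf5KO and Nfatc1KO this window stood at 0.83 in Pitx1KO and at -0.12 in Creb3l1KO, so the line apart was Pitx1KO, in contrast to Trim44 and Cers6. Of the 39 genes tested within 1 Mb of the start of Creb3l1, 26 were called higher and none lower, with a median of 0.92. The shares over all genes tested were 6.56% and 4.01%. Examples, chosen after their values were seen, are the proteasome subunit Psmc3, at 4861, 5203, 5989 and 5936 against 2293, 2031, 2996 and 3052 (log2 fold change 1.10, SE 0.08), the repair gene Ddb2 (1.27, SE 0.15) and the clock gene Cry2 (1.63, SE 0.17). Of the 38 genes tested within 1 Mb of Pitx1, none was called higher and 6 lower, with a median of -0.32. Over all genes tested, 6.56% were called higher and 4.01% lower. On the whole of chromosome 13, among genes with a mean of at least 50, 27.2% were called lower and the median was -0.28. The 6 included H2afy, the histone macroH2A1, at 1666, 2039, 1763 and 1871 against 3187, 2855, 2864 and 3185 (-0.72, SE 0.10, adjusted p = 0.00029). Of those 6, H2afy alone kept its call with each library left out.

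**Figure D5:**
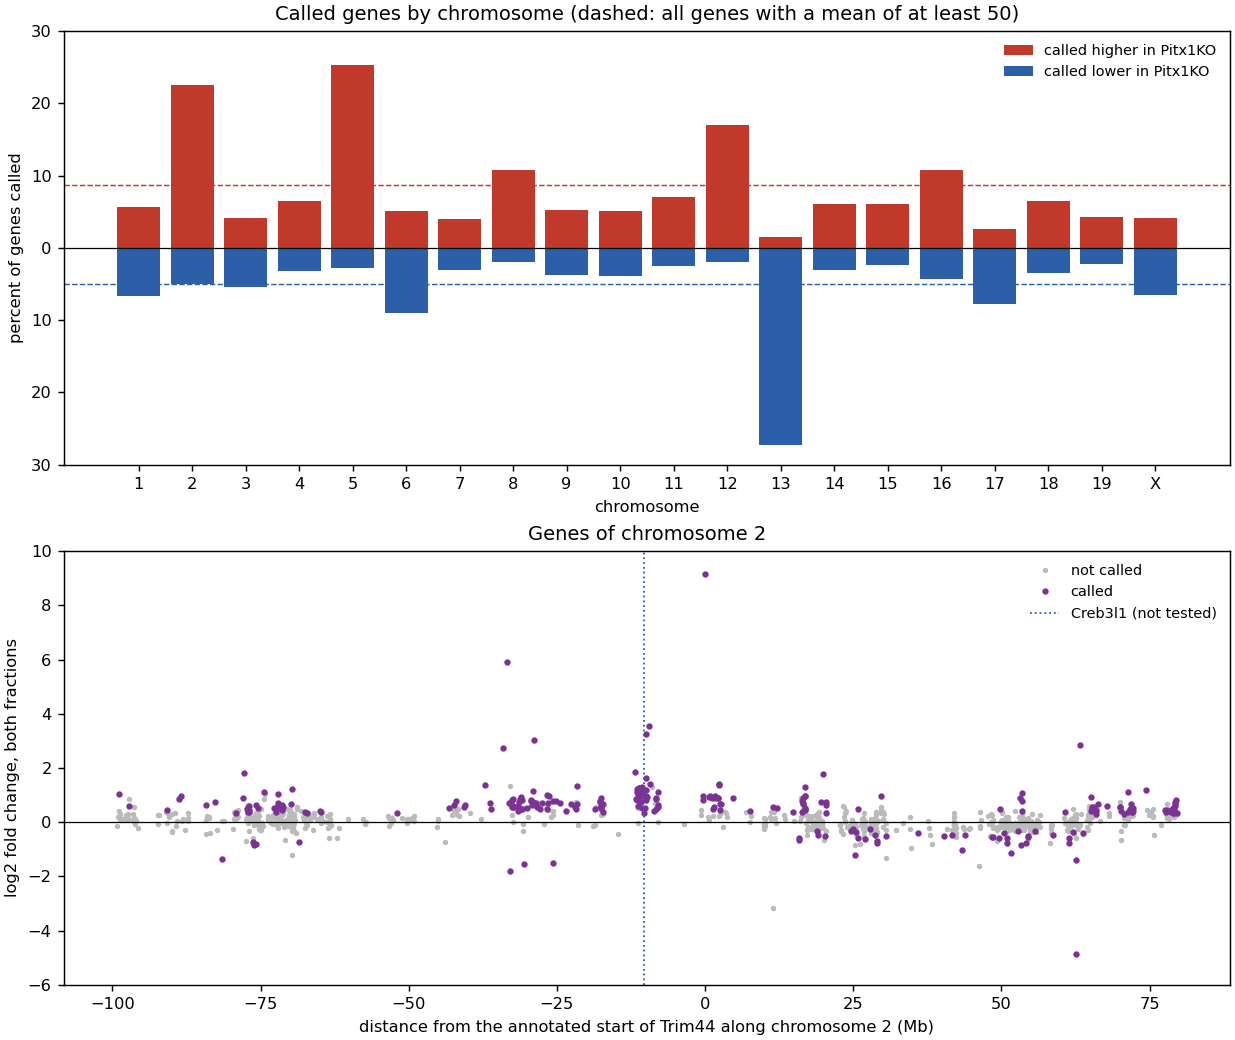
Upper panel: percent of genes (mean of at least 50) called higher (red, up) or lower (blue, down) in Pitx1KO on each chromosome, with dashed lines at the shares over all such genes, 8.74% and 4.99%. Lower panel: log2 fold change of each such gene of chromosome 2 against its distance from the start of Trim44 in Mb, with called genes in purple and a dotted line at Creb3l1. The called genes near the dotted line lie above 0, and Trim44 stands at 9.17.

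Set beside the 8 Klf5KO and Nfatc1KO libraries, Pitx1KO was the line farther from them in 1215 of the 2013 called genes (60.4%), against 51.6% of all genes tested. All 4 Pitx1KO libraries lay outside the range of those 8 libraries in 460 called genes, all 4 Creb3l1KO libraries in 238, and both lines in 22, while in 1337 neither line lay outside that range. Over all 19045 genes tested the same counts were 941 for Pitx1KO, 650 for Creb3l1KO, 130 for both lines and 17584 for neither. Called genes were selected for a difference between the same Pitx1KO and Creb3l1KO libraries. All of these are counts over genes with no test. Pitx1, Hoxb5 to Hoxb8, St8sia2, Krt14, Phactr2 and Cx3cl1 belong to the called genes with Pitx1KO outside. Trim44, Cers6, Slc7a1, Gata6, Cdh2 and Zfp518b belong to those with Creb3l1KO outside.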

How the data were processed

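The deposited table holds reads per gene that the authors scaled to a common total of units per library and rounded, used here as a score and called the scaled count. Per the submitters' processing notes, FastQC, Trimmomatic, STAR, Picard and HTSeq were used with GRCm38/mm10. Versions, and how these tools were set, are not given in the sources used here. The steps of the deposited score gave whole reads for 99.7% to 99.9% of values in the 8 libraries. Per the labels' protocols, libraries were made with the Ovation Solo kit.

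Genes with a score of at least 10 in at least 2 of the 16 knockout libraries were tested with limma 3.58.1 (R 4.3.3) on log2(score + 1), with a variance trend and robust prior, 8 group means and the sample number as a block. The fold change of low genes is understated on this scale. Klf5KO and Nfatc1KO libraries entered the filter, the block effect and the spread. They do not change the fold changes of the main fit, but through the block they enter those with a library left out. P-values were adjusted over 19045 genes in each contrast, and genes below 0.05 were called. The labels give the sample number as a batch. As a check, replicate differences of 28 pairs of groups correlated at -0.0956 to 0.407, above 0.1 in 24. Between the compared lines they were 0.147 in the matched EPCAM+ and -0.0956 in the matched EPCAM- groups, the lowest of the 28. Across fractions they were 0.187 (Pitx1KO EPCAM- with Creb3l1KO EPCAM+) and 0.00806 (Pitx1KO EPCAM+ with Creb3l1KO EPCAM-). The 2 libraries of each group differed by more than counting noise (chi-square per degree of freedom 16.8 to 31.2). Summaries and figures used Python 3.11.15 with pandas 2.3.3, scipy 1.17.1 and matplotlib 3.10.9. The fit was tested on simulated data with a sample-number effect shared by all groups and otherwise independent libraries. Because it assumes that structure, the simulation cannot show whether the block suits these libraries. Ratios of genes with 1 to 3 reads in a line carry an exact 95% counting interval. It pools the reads of the 4 libraries of a line and leaves out the larger spread between libraries.

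The members and the 34 gene lists were chosen with earlier results of these data known. Named genes were Pitx1, Creb3l1, Trim44 and Epcam, the 12 largest rises and 12 largest falls among called genes whose higher line averaged 50 or more and whose 4 matched pairs shared 1 direction, the 3 largest of each fraction by the same rule, and list members. Neighbours of the targeted genes and Slc7a1 were named after their values were seen. Alternatives were the fit without the block, with 8 or all 22 libraries, with 4 matched pairs, another pseudocount (5), other filters, TMM scaling, voom on recovered reads and each library left out. Averaging the 2 fractions first was added after seeing the data. The values of 1 list member are not reported here.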

Additional observations from a re-analysis of the deposited data

How the results depend on the processing

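No called gene changed direction under any alternative. In 5 of them no direction could change, because the fold changes equal those of the main fit. These are the fits without the block, with 8 or all 22 libraries, with 4 matched pairs and with averaged fractions. Over both fractions the 2013 calls became 765 without the sample number as a replicate block (761 of them among the 2013), 1257 with the 8 compared libraries alone, 1063 with the 4 matched pairs as the replicate block, 480 with the fractions averaged, and 1203 to 1856 with 1 library left out. In EPCAM+ cells the 493 calls became 89 without the block, 153 with 8 libraries, 324 with all 22, and 135 to 590 with 1 library left out. The lowest were 135 without EPCAM+ sample 1 and 144 without EPCAM+ sample 2 of Creb3l1KO, and 191 without EPCAM+ sample 1 of Pitx1KO. In EPCAM- cells the 679 calls became 152 without the block, 274 with 8 libraries, and 197 to 826 with 1 library left out. The lowest were 197 without EPCAM- sample 1 and 268 without EPCAM- sample 2 of Creb3l1KO, and 309 without EPCAM- sample 1 of Pitx1KO. The interaction gave 0 to 1 calls with 1 library left out, the 1 without EPCAM- sample 1 of Pitx1KO. The cause of these changes was not tested. The pseudocount, both filters and voom kept the 3 counts of calls within 1.5 times. TMM scaling called 1026 higher and 887 lower over both fractions, 53.6% higher against 62.1%, and moved the median of genes with a mean of at least 50 from 0.05 to 0.01. Among 142 calls for named genes, 91 stood whichever library was omitted and 60 under every alternative. Across alternatives the share called higher on chromosome 2 was 9.26% to 23.6%, against 2.15% to 9.57% over all genes, and the share called lower on chromosome 13 was 4.78% to 31.0%, against 1.15% to 5.92%. At 1 read to about 2 or 3 units, genes under about 10 units rest on few reads.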
